A study of Mus musculus with 12 samples.

Results

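The genes of cholesterol and fatty acid synthesis were followed in cultured mouse myeloid progenitors as they matured. The set holds 34 genes that were listed by symbol for their roles in sterol and fatty acid synthesis, out of 23309 genes with a value, and 33 were kept with 11516 genes in all by a minimum of 1 FPKM in 2 libraries. The remaining member, Hmgcs1, the cytosolic HMG-CoA synthase, was listed at about 0.1 FPKM in all 12 libraries. That value is the commonest one among genes without signal in these data, so nothing was read from it.

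The cells were ER-HoxB8 progenitors, bone marrow cells held immature by a retroviral fusion of the estrogen receptor with HoxB8 for as long as estradiol (E2) was present in a medium with interleukin 3. Wild-type progenitors and HMGN1-OE progenitors, which carry a transgene for human HMGN1, a nucleosome-binding protein, were sampled in E2 (0 h) and 36 and 96 h after its withdrawal, with 2 libraries in each of 6 groups. All the groups shared the HoxB8 fusion, so they model a culture and not marrow, and the 2 libraries of a group are described as biological duplicates, with no word on separate animals. RNA came from a fixed number of cells, and the values are FPKM (fragments per kilobase of transcript, scaled for library size) that the authors scaled to added synthetic RNAs, so a level is meant per cell. The libraries of a group are called A and B.

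Animal cells make cholesterol from acetyl-CoA through the mevalonate branch, which ends in farnesyl diphosphate, and a squalene branch that closes and trims the sterol rings. Fatty acids are built from the same acetyl-CoA by ATP citrate lyase, acetyl-CoA carboxylase and fatty acid synthase, and are then lengthened, desaturated and activated to acyl-CoA for membrane lipids and triglycerides. The SREBP transcription factors, encoded by Srebf1 and Srebf2, switch on most of these genes when membrane sterol runs low, and Insig1 holds them back in the endoplasmic reticulum. SREBPs bind sterol regulatory elements and E-boxes beside NF-Y and Sp1, and growing cells are known to run these pathways to supply new membrane.

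Promoter windows of 250 bases before to 50 after a RefSeq start (GRCm38.p6) were at hand for 25 of the 34 members. The classical sterol regulatory element, TCACNCCAC on either strand, was found in 2 of the 25, Hmgcs1 and Acsl1 (8%), and in 1.44% of 27025 genes. The palindromic E-box CACGTG was found in 4, Insig1, Hsd17b7, Dhcr7 and Elovl5 (16%), against 8.09% of all genes. CCAAT, the NF-Y box, and GGGCGG, the Sp1 box, each read on both strands, were in 20 members each (80%), against 41.1% and 38.2% of all genes. These shares are over the 27025 genes with a window, with or without signal here. No share was taken over the 11516 genes tested. The stretches below are shown because they hold the sterol element, the E-box or NF-Y boxes in 4 enzymes and 2 regulators. They run 5′ to 3′ on the strand of the gene, and capitals mark matches to the sterol element, the E-box and the NF-Y box, which did not overlap each other.
Hmgcs1 (HMG-CoA synthase), chr13:119690101-119690325, plus strand: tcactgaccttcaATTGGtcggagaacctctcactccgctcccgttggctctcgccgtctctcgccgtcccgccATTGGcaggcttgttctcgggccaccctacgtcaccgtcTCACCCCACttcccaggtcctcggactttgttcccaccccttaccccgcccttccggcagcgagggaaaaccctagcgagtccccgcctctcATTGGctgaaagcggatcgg
Acsl1 (acyl-CoA synthetase), chr8:46490779-46490936, plus strand: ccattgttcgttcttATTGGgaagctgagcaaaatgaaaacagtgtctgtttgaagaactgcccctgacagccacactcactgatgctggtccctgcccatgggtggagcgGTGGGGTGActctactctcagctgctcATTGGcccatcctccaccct
Hsd17b7 (a sterol ketone reductase), chr1:169969206-169969385, minus strand: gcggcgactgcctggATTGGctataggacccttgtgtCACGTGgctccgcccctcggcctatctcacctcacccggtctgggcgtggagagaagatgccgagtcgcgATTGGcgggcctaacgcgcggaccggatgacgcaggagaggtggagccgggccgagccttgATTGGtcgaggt
Insig1 (the retention factor), chr5:28071181-28071331, plus strand: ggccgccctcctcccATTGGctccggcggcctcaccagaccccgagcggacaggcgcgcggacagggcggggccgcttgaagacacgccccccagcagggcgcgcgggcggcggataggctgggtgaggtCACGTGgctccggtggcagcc
Srebf2 (the factor of sterol synthesis), chr15:82147119-82147153, plus strand: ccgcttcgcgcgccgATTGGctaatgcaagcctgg
Idi1 (isopentenyl diphosphate isomerase), chr13:8885546-8885605, plus strand: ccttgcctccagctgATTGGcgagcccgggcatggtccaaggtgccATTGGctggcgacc
The Hmgcs1 stretch carries the sterol element between NF-Y boxes, and the Acsl1 stretch carries it on the opposite strand in the same arrangement. The Insig1 and Hsd17b7 stretches carry an E-box downstream of an NF-Y box. These are matches of letters and say nothing of binding in these cells.

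The summed signal of the members was 1458 to 2967 FPKM per library at 0 h, 2455 to 3248 at 36 h and 338 to 1100 at 96 h. As a share of the FPKM of all genes it was 0.209 to 0.281% at 0 h, 0.213 to 0.273% at 36 h and 0.148 to 0.203% at 96 h. The summed FPKM of all genes ran from 228955 to 1442573, so the whole library was lower at 96 h. In these bulk samples fewer cells of a type and less RNA per cell cannot be told apart. The libraries of a group also differed. At 0 h wild-type library B was the highest of the 4 libraries for 17 members and HMGN1-OE library A for 16, and wild-type library B at 96 h was the lowest of all 12 for 29 of 33. Members' values by library are drawn in blocks by role.

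**Figure D1:**
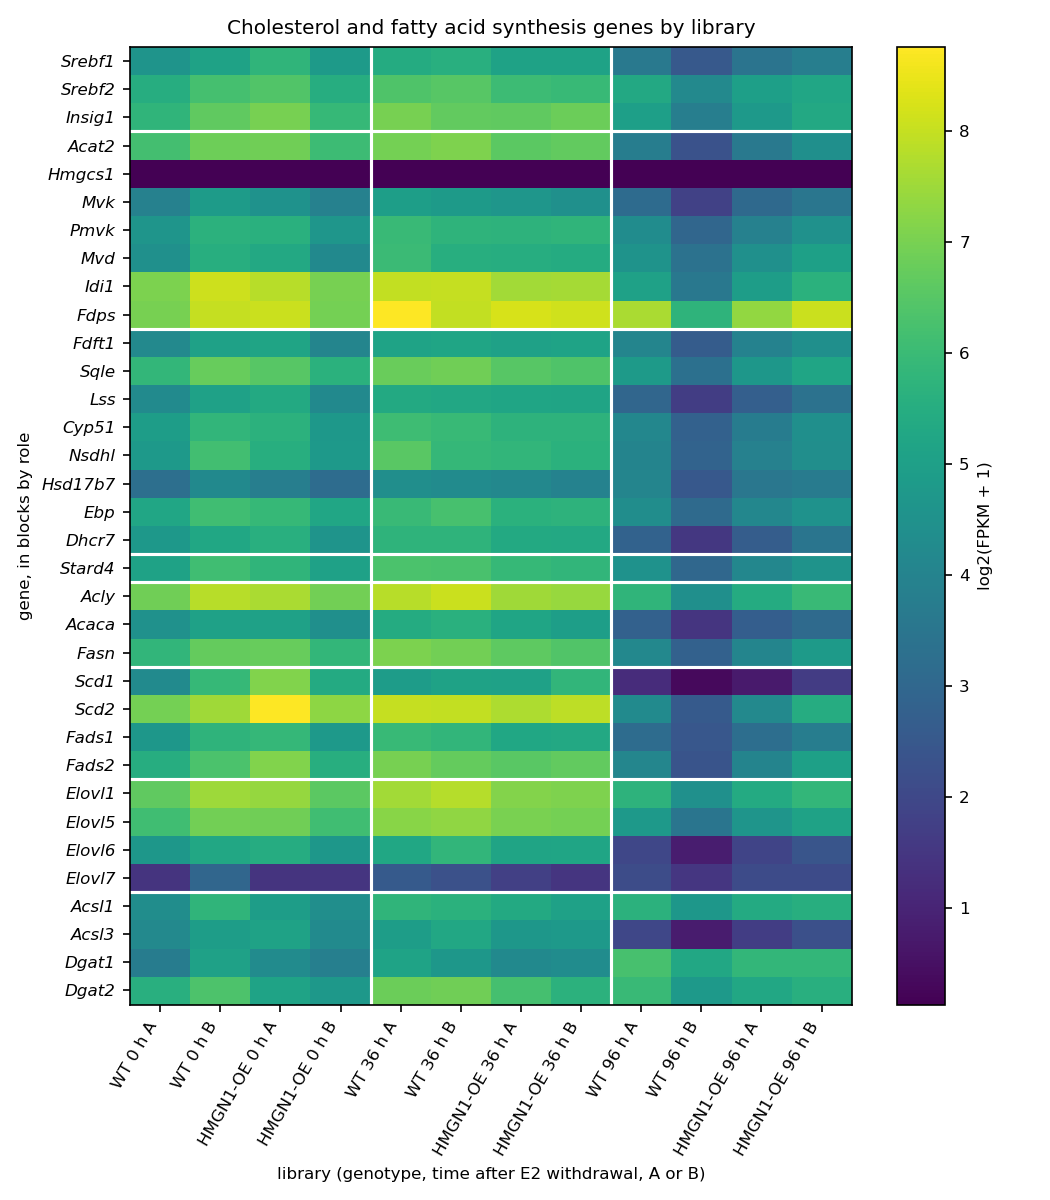
Each row is 1 of the 34 genes and each column 1 of the 12 libraries, and the colour gives log2(FPKM + 1). The 4 columns at 96 h are darker for most genes, Dgat1 in the last block is brighter there, and Hmgcs1 is dark throughout.

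Differences were tested with limma on log2(FPKM + 1) across all 11516 genes, and a gene was called at a Benjamini-Hochberg adjusted p under 0.05. Because most genes fell together at 96 h, each change was also read with every library centred on its median gene, which gives the change relative to the bulk of the transcriptome.

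Between genotypes, no member was called at any time. At 0 h the count was 0 of 33, with 1.36% of all genes called, and 1 member, Scd1, had an unadjusted p under 0.05. At 36 h it was 0 of 33, with 1.26% of all genes called and 1 member, Elovl7, under an unadjusted 0.05, and at 96 h it was 0 of 33, with 0.669% called and 2 members, Scd2 and Fads2, under it. The 9 other settings of scaling, filter and limma also called no member. Without wild-type library A at 0 h, Elovl7 was called lower in HMGN1-OE cells (adjusted p = 0.0193), and without wild-type library A at 96 h, Scd2 (adjusted p = 0.0142) and Fads2 (adjusted p = 0.0160) were called higher. Each of these fits left 1 wild-type library at that time, assumed to vary like the other groups.

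The median difference of the members, HMGN1-OE minus wild type, was -0.03 on the log2 scale at 0 h, -0.39 at 36 h and 0.69 at 96 h, against -0.12, -0.54 and 0.36 for all genes. Single libraries weighed on the outer times. At 0 h the members' median was -0.49 without wild-type library A and -0.47 without HMGN1-OE library A, and 0.37 and 0.36 without library B of either genotype. At 96 h it was 0.08 without wild-type library B, 1.29 without wild-type library A and 0.41 without HMGN1-OE library B. With libraries centred the medians were 0.11, 0.19 and 0.29, so the direction at 0 and 36 h turned. At 96 h 28 of the 33 members lay above the median of all genes. With libraries centred both HMGN1-OE libraries were then above both wild-type libraries for 17 members and below for 3, where 21.7% and 22.6% of all genes were so, and no member was called. At 36 h the HMGN1-OE libraries were both below both wild-type libraries for 29 of 33 members, and that was so for 84.4% of all genes. The 4 members whose libraries overlapped there were Fdps, Pmvk, Insig1 and Scd1.

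Scd1 and Scd2, which encode stearoyl-CoA desaturases that put the first double bond into saturated acyl chains, had the largest positive differences at 0 h. Scd1 stood at 18.4 and 59.7 FPKM in wild-type and 139 and 41.3 FPKM in HMGN1-OE libraries A and B. Scd2 stood at 122 and 185 FPKM in wild-type and 422 and 156 FPKM in HMGN1-OE libraries. For both genes HMGN1-OE library A was far above the other 3. The log2 difference was 1.16 ± 0.50 (SE) for Scd1 (limma adjusted p = 0.683) and 0.77 ± 0.57 for Scd2 (adjusted p = 1). Without HMGN1-OE library A these were 0.30 and 0.06, without wild-type library A 0.34 and 0.47, without HMGN1-OE library B 2.03 and 1.48, and without wild-type library B 1.99 and 1.07, none of them called. At 96 h the difference of Scd2 was 1.40 ± 0.57 and that of Fads2, a desaturase of polyunsaturated fatty acids, 1.31 ± 0.55, both with an adjusted p of 0.859 and overlapping libraries. Without wild-type library B these were 0.57 and 0.44, without HMGN1-OE library B 0.76 and 0.79, and without wild-type library A 2.23 and 2.17.

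Dgat2, which encodes a diacylglycerol acyltransferase of triglyceride synthesis, had the largest negative difference at 0 and 36 h. At 0 h it stood at 46.3 and 81.2 FPKM in wild-type and 34 and 25.6 FPKM in HMGN1-OE libraries, and at 36 h at 112 and 116 against 73.7 and 50.4 FPKM. The groups did not overlap at either time. The log2 difference was -1.03 ± 0.55 (SE) at 0 h (limma adjusted p = 1) and -0.89 ± 0.55 at 36 h (adjusted p = 0.496). With libraries centred it was -0.90 ± 0.15 at 0 h (adjusted p = 0.131) and -0.31 ± 0.15 at 36 h (adjusted p = 1), where the libraries overlapped. At 0 h Dgat2 was the only member whose genotypes did not overlap, a separation downward that 4.67% of all genes showed.

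**Figure D2:**
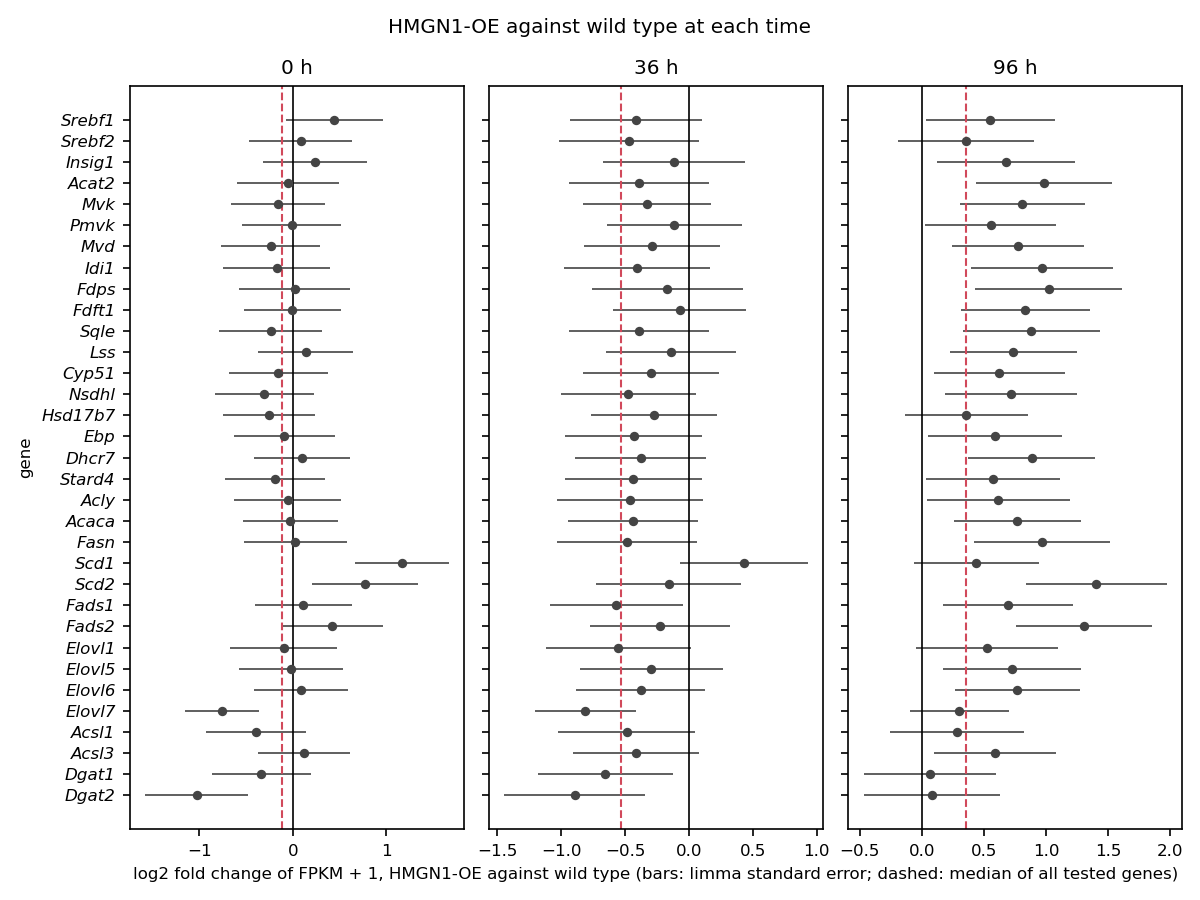
Points give the log2 fold change of FPKM + 1, HMGN1-OE against wild type, of 33 genes at 0, 36 and 96 h, with limma's standard error as bars and the median of all tested genes as a dashed line. Most points sit near the dashed line, with Scd1 at 1.16 and Dgat2 at -1.03 farthest out at 0 h, and no gene was called.

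From 0 to 36 h no member was called in either genotype. The count was 0 of 33 in wild-type cells, with 0.617% of all genes called, and 0 of 33 in HMGN1-OE cells, with 1.8% called, and no member reached an unadjusted p under 0.05 in either. The median change was 0.64 on the log2 scale in wild-type cells (0.47 for all genes) and 0.28 in HMGN1-OE cells (0.06 for all genes). It was 0.18 without wild-type library A at 0 h and 1.04 without library B, and in HMGN1-OE cells it turned to -0.19 without library B at 0 h and was 0.67 without library A. With libraries centred it was 0.16 and 0.25. The largest rise in HMGN1-OE cells was that of Dgat2, from 34 and 25.6 to 73.7 and 50.4 FPKM, with no overlap (log2 change 1.02 ± 0.55, limma adjusted p = 1). With libraries centred it was 0.99 ± 0.15 (adjusted p = 0.0513).

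From 36 to 96 h most members fell. In wild-type cells 30 of 33 were called lower and 0 higher, where 86.3% of all genes were called lower and 3.15% higher. In HMGN1-OE cells 24 were called lower and 1 higher, where 64.9% of all genes were called lower and 4.02% higher. The members' median change was -2.59 (log2) in wild-type cells and -1.57 in HMGN1-OE cells, against -2.21 and -1.33 for all genes. A fall was therefore the common behaviour of genes here, and the share of members that fell was near that background. With each library centred on its median the split was 15 lower and 7 higher in wild-type cells, where 33.7% of all genes were called lower and 38.2% higher, and 12 lower and 6 higher in HMGN1-OE cells, where 32.3% and 28.6% were. Quantile normalization gave 13 lower and 9 higher in wild-type cells, where 38.3% and 31.9% of all genes were called, and 11 and 9 in HMGN1-OE cells, where 36% and 28.7% were. Scaling each library to an equal sum gave 22 lower and 5 higher, where 52.7% and 19.3% of all genes were called, and 23 and 3, where 55.5% and 13.9% were.

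In HMGN1-OE cells the count of members called lower dropped without any 1 of 3 libraries. Without HMGN1-OE library A at 96 h 10 members were called lower, where 30.8% of all genes were. Without library A at 36 h there were 13, where 39.7% of all genes were called, and without library B at 36 h 16, where 45.6% were. The members' median change was -1.30, -1.57 and -1.58 in these fits, against -1.57 with every library. Without HMGN1-OE library B at 96 h 24 members were called lower, as with every library, where 53% of all genes were. In wild-type cells, leaving out the low library B at 96 h gave 26 lower and 1 higher, where 76.6% and 3.36% of all genes were called. Through all 21 alternatives, leave-one-out fits included, 13 members stayed called lower in wild-type cells and 10 in HMGN1-OE cells, as did 31.2% and 24.1% of all genes. The latter, called in both genotypes, were Acat2, Idi1, Lss, Dhcr7, Acaca, Scd1, Scd2, Elovl5, Elovl6 and Acsl3. Across the 4 libraries of each time, 25 of 33 members (75.8%) had every library at 96 h below every earlier one, as did 76.3% of all genes.

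**Figure D3:**
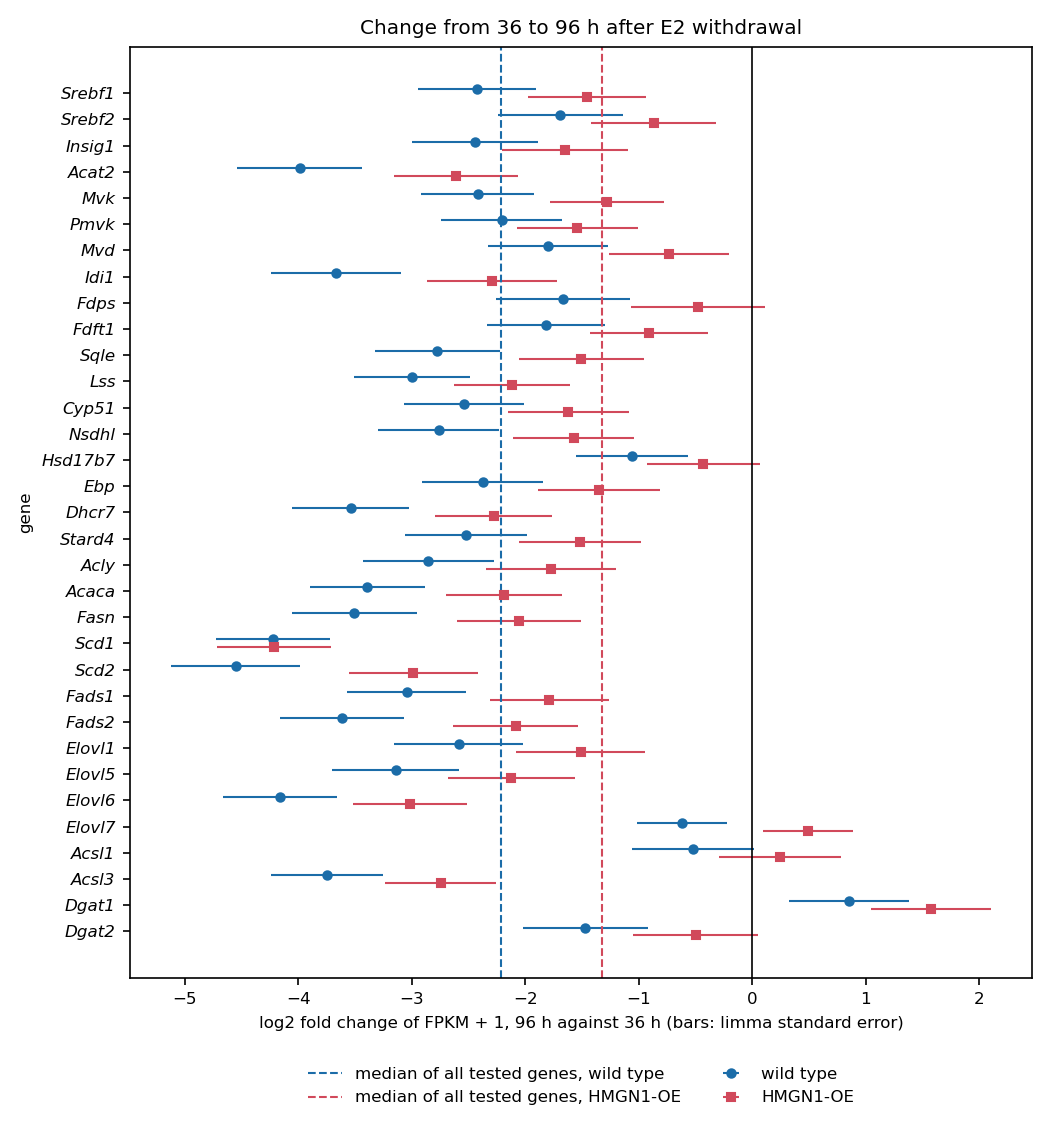
Points give the log2 fold change of FPKM + 1 from 36 to 96 h of 33 genes in wild-type (circles) and HMGN1-OE cells (squares), with limma's standard error as bars. Dashed lines mark the medians of all tested genes, -2.21 and -1.33. Scd1, Scd2, Elovl6, Acat2 and Acsl3 lie far to the left of them, and Elovl7, Acsl1 and Dgat1 to the right.

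Of the 3 regulators, Srebf1 and Insig1 fell in both genotypes and Srebf2 in wild-type cells. Srebf1, whose product drives fatty acid synthesis genes, stood at 23.3 and 33.3 FPKM in wild-type and 53.6 and 27.3 in HMGN1-OE libraries at 0 h. It was at 42.9 and 46.4 against 33.1 and 33.3 at 36 h, and at 11.4 and 4.83 against 10 and 13.1 at 96 h. All 4 libraries at 96 h lay below the earlier 8, with a log2 change from 36 h of -2.42 ± 0.52 (SE) in wild-type cells (limma adjusted p = 6.29e-06) and -1.46 ± 0.52 in HMGN1-OE cells (adjusted p = 0.00973). With libraries centred its change was -0.10 (adjusted p = 0.594) and -0.11 (adjusted p = 0.554), not called.

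Srebf2, whose product drives sterol synthesis genes, had a smaller estimate. It stood at 44.6 and 73.9 FPKM in wild-type and 84.0 and 44.1 in HMGN1-OE libraries at 0 h. It was at 82.7 and 90.8 against 64.5 and 60.1 at 36 h, and at 39.3 and 17.3 against 30.9 and 36.7 at 96 h. The libraries at 96 h lay below all earlier ones. It fell by 1.69 ± 0.55 (SE) on the log2 scale in wild-type cells (limma adjusted p = 0.00265), and its change was -0.87 ± 0.55 in HMGN1-OE cells (adjusted p = 0.142). Relative to the median gene it rose, by 0.63 ± 0.13 (adjusted p = 0.00233) and 0.47 ± 0.13 (adjusted p = 0.0127).

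Insig1, the retention factor and itself a target of SREBPs, stood at 54.3 and 98.8 FPKM in wild-type and 127 and 58.7 in HMGN1-OE libraries at 0 h. It was at 127 and 102 against 99.6 and 111 at 36 h, and at 30.7 and 13.1 against 27.1 and 39.9 at 96 h. It fell to below every earlier library, by 2.44 and 1.65 on the log2 scale, and was not called relative to the median gene in either genotype.

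In the mevalonate branch all 6 members tested were called lower in wild-type cells and 4 in HMGN1-OE cells, near the 86.3% and 64.9% of all genes, with a median change of -2.31 and -1.41. Acat2, the thiolase of the first step, stood at 71.5 and 116 FPKM in wild-type and 119 and 64.7 in HMGN1-OE libraries at 0 h. It was at 124 and 134 against 94.9 and 101 at 36 h, and at 12.7 and 3.91 against 11.2 and 20.6 at 96 h. The step down left no overlap, with a log2 change of -3.99 ± 0.55 (SE) in wild-type cells (limma adjusted p = 3.93e-12) and -2.61 ± 0.55 in HMGN1-OE cells (adjusted p = 1.52e-05).

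Idi1, which interconverts the isoprene units, followed the same course. It stood at 131 and 277 FPKM in wild-type and 227 and 126 in HMGN1-OE libraries at 0 h. It was at 247 and 258 against 188 and 191 at 36 h, and at 32.3 and 10.9 against 29.4 and 48.7 at 96 h. Its log2 change was -3.67 in wild-type cells and -2.29 in HMGN1-OE cells, and relative to the median gene it was -1.35 ± 0.20 (limma adjusted p = 0.000353) and -0.95 ± 0.20 (adjusted p = 0.00331). Mvk, Pmvk and Mvd, the kinases and the decarboxylase between them, changed by -1.80 to -2.42 in wild-type cells, and relative to the median gene Pmvk was at 0.12 and Mvd at 0.52 there.

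Fdps, farnesyl diphosphate synthase at the end of the branch, was singled out after its values were seen, because it became the most abundant member. It was the highest of the 34 in every library at 96 h, at 199.6 and 52.0 FPKM in wild-type and 162 and 267 in HMGN1-OE cells, after 432 and 247 against 301 and 281 at 36 h. Its log2 change was -1.67 ± 0.59 (SE) in wild-type cells (limma adjusted p = 0.00566) and -0.48 ± 0.59 in HMGN1-OE cells (adjusted p = 0.455). Its sign turned relative to the median gene, to 0.65 (adjusted p = 0.162) and 0.86 (adjusted p = 0.0847). In GENCODE vM21 its exons share 1124 bases with the gene model Gm43738 on the same strand, so its reads are uncertain.

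In the squalene branch all 8 members were called lower in wild-type cells and 6 in HMGN1-OE cells, again near the 86.3% and 64.9% of all genes, with medians of -2.65 and -1.54. Dhcr7, the last reductase of cholesterol synthesis, stood at 25.3 and 37.4 FPKM in wild-type and 46.9 and 23.1 in HMGN1-OE libraries at 0 h. It was at 52.0 and 52.0 against 40.4 and 39.1 at 36 h, and at 6.18 and 1.90 against 5.38 and 10.1 at 96 h. It fell by 3.54 and 2.28 on the log2 scale with no overlap, and by 1.21 ± 0.22 (limma adjusted p = 0.000992) and 0.93 ± 0.22 (adjusted p = 0.00526) relative to the median gene.

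Lss, the cyclase that makes lanosterol, stood at 18.2 and 32.9 FPKM in wild-type and 40.4 and 17.9 in HMGN1-OE libraries at 0 h. It was at 40.0 and 38.3 against 35.5 and 35.2 at 36 h, and at 6.87 and 2.22 against 5.66 and 9.56 at 96 h. It fell by 3.00 and 2.12 on the log2 scale. Cyp51, Nsdhl, Ebp and Sqle, the enzymes of demethylation, isomerisation and squalene oxidation, changed by -2.38 to -2.78 in wild-type cells. Fdft1, squalene synthase, changed by -1.82 there and by -0.91 in HMGN1-OE cells, and by 0.51 and 0.43 relative to the median gene, with 774 exon bases shared with Ctsb on the opposite strand. Hsd17b7, chosen after its values were seen, changed least of the branch, from 20.1 and 18.5 to 15.5 and 4.71 FPKM in wild-type cells and from 17.0 and 14.6 to 10.7 and 12.2 in HMGN1-OE cells. Against the median gene it rose by 1.26 ± 0.19 (limma adjusted p = 0.000298) and 0.91 ± 0.19 (adjusted p = 0.00252).

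Stard4, which carries sterol between membranes, was called lower in both genotypes. It stood at 33.8 and 68.5 FPKM in wild-type and 54.5 and 32.3 in HMGN1-OE libraries at 0 h. It was at 78.6 and 77.3 against 59.7 and 55.1 at 36 h, and at 22.3 and 7.06 against 16.4 and 22.8 at 96 h. Its log2 change of -2.53 and -1.52 came to -0.20 and -0.18 (limma adjusted p = 0.337 and 0.419) relative to the median gene, which was not called.

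The 3 enzymes that build the acyl chain were called lower in both genotypes, as deposited, as were 86.3% and 64.9% of all genes, and relative to the median gene, as were 33.7% and 32.3%. Fasn, fatty acid synthase, stood at 54.8 and 105 FPKM in wild-type and 107 and 56.1 in HMGN1-OE libraries at 0 h. It was at 132 and 119.7 against 96.2 and 83.5 at 36 h, and at 16.7 and 6.04 against 15.6 and 27.7 at 96 h. It fell by 3.51 ± 0.55 (SE) on the log2 scale in wild-type cells (limma adjusted p = 9.61e-10) and by 2.05 ± 0.55 in HMGN1-OE cells (adjusted p = 0.000639).

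Acaca, the carboxylase that makes malonyl-CoA, stood at 21.7 and 32.4 FPKM in wild-type and 32.8 and 20.6 in HMGN1-OE libraries at 0 h. It was at 42.5 and 48.4 against 36.2 and 30.5 at 36 h, and at 6.09 and 1.75 against 5.58 and 7.61 at 96 h. It fell by 3.39 and 2.19 on the log2 scale. Acly, which makes cytosolic acetyl-CoA from citrate, fell by 2.85 and 1.78.

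The 4 desaturases were called lower in both genotypes, where 86.3% and 64.9% of all genes were, and had the lowest median of the roles, a log2 change of -3.92 in wild-type cells and -2.54 in HMGN1-OE cells. Scd2 went from 254 and 247 FPKM in wild-type and 208 and 240.2 in HMGN1-OE libraries at 36 h to 18.1 and 5.03 against 17.2 and 43.2 at 96 h. Scd1 went from 28.8 and 33.5 against 32.6 and 54.5 FPKM to 1.33 and 0.265 against 0.692 and 2.21. No library at 96 h came near an earlier one. Scd2 was 23.4-fold lower in wild-type and 7.93-fold lower in HMGN1-OE cells on the scale of FPKM + 1 (log2 change -4.55 ± 0.57 and -2.99 ± 0.57, limma adjusted p = 2.69e-14 and 1.82e-06). For Scd1 the log2 change was -4.22 ± 0.50 and -4.21 ± 0.50 (adjusted p = 1.17e-15 and 4.16e-15). For genes this low, adding 1 to the FPKM shrinks the change.

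Fads1 and Fads2, the desaturases of polyunsaturated fatty acids, had smaller estimates. Fads1 stood at 24.9 and 52.4 FPKM in wild-type and 58.0 and 26.3 in HMGN1-OE libraries at 0 h. It was at 60.4 and 55.1 against 37.2 and 39.9 at 36 h, and at 8.17 and 4.51 against 8.52 and 12.8 at 96 h. Fads2 stood at 45.0 and 78.4 against 137 and 46.1 FPKM at 0 h, 125 and 105 against 93.0 and 103 at 36 h, and 16.1 and 4.18 against 15.3 and 32.2 at 96 h. Their log2 changes were -3.05 and -3.62 in wild-type and -1.79 and -2.09 in HMGN1-OE cells, all called. Relative to the median gene they were called in wild-type cells, and in HMGN1-OE cells were -0.44 (limma adjusted p = 0.0933) and -0.74 (adjusted p = 0.12).

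Among the 4 elongases, 3 were called lower in each genotype, where 86.3% and 64.9% of all genes were, and Elovl7 was not. Elovl6, which lengthens saturated chains of medium length, stood at 25.0 and 38.1 FPKM in wild-type and 43.4 and 24.9 in HMGN1-OE libraries at 0 h. It was at 38.0 and 55.7 against 34.8 and 35.6 at 36 h, and at 2.94 and 0.761 against 2.74 and 4.37 at 96 h. It fell by 4.16 ± 0.50 (SE) in wild-type cells (limma adjusted p = 4.54e-15) on the log2 scale, and its change was -3.01 ± 0.50 in HMGN1-OE cells (adjusted p = 5.2e-08).

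Elovl5, which lengthens polyunsaturated chains, stood at 69.0 and 120.2 FPKM in wild-type and 118 and 68.5 in HMGN1-OE libraries at 0 h. It was at 149 and 159 against 128 and 123 at 36 h, and at 26.5 and 10.2 against 23.5 and 33.4 at 96 h. It fell by 3.14 and 2.12 on the log2 scale, and Elovl1, an elongase of very long saturated chains, fell by 2.59 and 1.51. Elovl7, the least abundant tested member at 0 and 36 h, ranged from 1.68 to 6.92 FPKM at 0 h, from 1.73 to 4.95 at 36 h and from 1.81 to 3.36 at 96 h. Its log2 change was -0.62 in wild-type cells and 0.49 in HMGN1-OE cells (limma adjusted p = 0.127 and 0.250), and 1.70 and 1.84 relative to the median gene (adjusted p = 0.000881 and 0.000792).

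The genes of acyl-CoA activation and triglyceride synthesis took different courses. Acsl3, an acyl-CoA synthetase of lipid droplets, stood at 17.1 and 29.8 FPKM in wild-type and 33.6 and 18.0 in HMGN1-OE libraries at 0 h. It was at 29.6 and 39.0 against 24.7 and 25.9 at 36 h, and at 2.91 and 0.740 against 2.23 and 3.76 at 96 h. It fell by 3.75 ± 0.49 (SE) on the log2 scale in wild-type cells (limma adjusted p = 4.76e-13) and by 2.75 ± 0.49 in HMGN1-OE cells (adjusted p = 4.04e-07). Its exons share 244 bases with Utp14b on the same strand.

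Acsl1, another synthetase of the same reaction, was not called. It stood at 19.7 and 53.3 FPKM in wild-type and 29.7 and 20.2 in HMGN1-OE libraries at 0 h. It was at 54.0 and 48.6 against 40.5 and 32.4 at 36 h, and at 50.2 and 24.8 against 41.4 and 45.2 at 96 h. Its log2 change was -0.52 ± 0.54 (SE, limma adjusted p = 0.345) in wild-type and 0.25 ± 0.54 (adjusted p = 0.677) in HMGN1-OE cells. Relative to the median gene it rose by 1.80 ± 0.18 (adjusted p = 3.79e-05) and 1.59 ± 0.18 (adjusted p = 0.000117). Its exons share 1039 bases with the model Gm45244 on the opposite strand, which a library kit without strand information cannot part.

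Dgat1, which encodes an acyltransferase that also makes triglycerides but is no relative of Dgat2, was the only member called higher in any time step on the deposited scale with all groups fitted together. With only the groups compared in the fit, Elovl7 was also called higher from 36 to 96 h in HMGN1-OE cells (log2 change 0.49, limma adjusted p = 0.0140). Dgat1 stood at 12.5 and 32.9 FPKM in wild-type and 18.6 and 13.6 in HMGN1-OE libraries at 0 h. It was at 34.4 and 25.1 against 17.7 and 18.9 at 36 h, and at 74.8 and 38.9 against 56.8 and 56.2 at 96 h. Every library at 96 h was above every earlier one, which held for no other member and for 3.15% of all genes. The log2 change was 1.57 ± 0.53 (SE) in HMGN1-OE cells (2.98-fold, limma adjusted p = 0.00608) and 0.85 ± 0.53 in wild-type cells (adjusted p = 0.114). Against the median gene it was 3.18 ± 0.23 in wild-type cells (adjusted p = 7.80e-06) and 2.92 ± 0.23 in HMGN1-OE cells (adjusted p = 2.12e-05).

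The call in HMGN1-OE cells was lost without library A at 36 h (limma adjusted p = 0.0690), library B at 36 h (0.0510) or library A at 96 h (0.0614), at nearly the same fold change. In wild-type cells the log2 change was 1.32 without library B at 96 h, where Dgat1 was called (adjusted p = 0.0211), and 0.39 without library A (adjusted p = 0.482). Dgat2 went from 112 and 116 FPKM in wild-type and 73.7 and 50.4 in HMGN1-OE libraries at 36 h to 62.3 and 26.2 against 38.9 and 47.2 at 96 h. It fell by 1.47 ± 0.55 (SE, limma adjusted p = 0.00895) in wild-type cells, and its change was -0.50 ± 0.55 (adjusted p = 0.405) in HMGN1-OE cells. Relative to the median gene it turned to a rise, of 0.85 ± 0.15 (adjusted p = 0.000893) and 0.84 ± 0.15 (adjusted p = 0.00125), and its sign also turned under equal-sum and quantile scaling.

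The change from 36 to 96 h was not shown to differ between genotypes for any member. The interaction of genotype with time called 0 of 33 members for 36 to 96 h, with 0.547% of all genes called and 2 members under an unadjusted p of 0.05, and 0 of 33 for 0 to 36 h, with 0.504% called and no member under it. The 9 other settings also called none. For 36 to 96 h the estimates ran from 0.01 for Scd1 to 1.56 for Scd2, all 33 above 0, around a median of 1.06 against 0.92 for all genes. That median was 0.42 without wild-type library B at 96 h and 1.66 without library A, and 0.08 with libraries centred, where 21 of the 33 estimates were above 0. The changes of the 33 members in both genotypes, which share no library, had a Pearson r of 0.968, where r over the 11516 genes was 0.917. Relative to the median gene, 6 of the 7 members called higher in wild-type cells were also called higher in HMGN1-OE cells, and these 6 were all that were, and 12 of the 15 called lower were also called lower, likewise all of them. Over all genes, 71.7% of those called higher in wild-type cells were also called higher in HMGN1-OE cells and 95.7% the other way round, and for lower calls the shares were 88.6% and 92.4%.

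A ratio of related genes within a library is free of any factor common to that library, though not of a scaling that varies with level, as loess does. With that limit, 6 pairs were compared without a test. The ratio of Acsl1 to Acsl3 was 0.884 to 1.79 at 0 h, 1.25 to 1.82 at 36 h and 12 to 33.5 at 96 h. The ratio of Dgat1 to Dgat2 was 0.269 to 0.546, then 0.216 to 0.375, then 1.19 to 1.48. At 96 h Acsl1 and Dgat1 were thus the more abundant gene of their pairs in all 4 libraries. Among elongases, Elovl5 to Elovl6 went from 2.71 to 3.15 at 0 h and 2.86 to 3.92 at 36 h to 7.65 to 13.5 at 96 h.

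The other pairs moved toward the second gene or not at all. Scd1 to Scd2 was 0.151 to 0.329 at 0 h, 0.113 to 0.227 at 36 h and 0.0402 to 0.0738 at 96 h. With 1 added to each FPKM the Scd1 range at 96 h, 0.0726 to 0.210, overlapped that at 36 h, 0.117 to 0.230. Srebf1 to Srebf2 was 0.450 to 0.638 at 0 h, 0.511 to 0.554 at 36 h and 0.279 to 0.358 at 96 h. Fads1 to Fads2 showed no separation, at 0.423 to 0.668, 0.389 to 0.525 and 0.398 to 1.08. In each pair but Fads1 to Fads2, the ratios at 96 h of both genotypes lay outside the range of the earlier times.

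**Figure D4:**
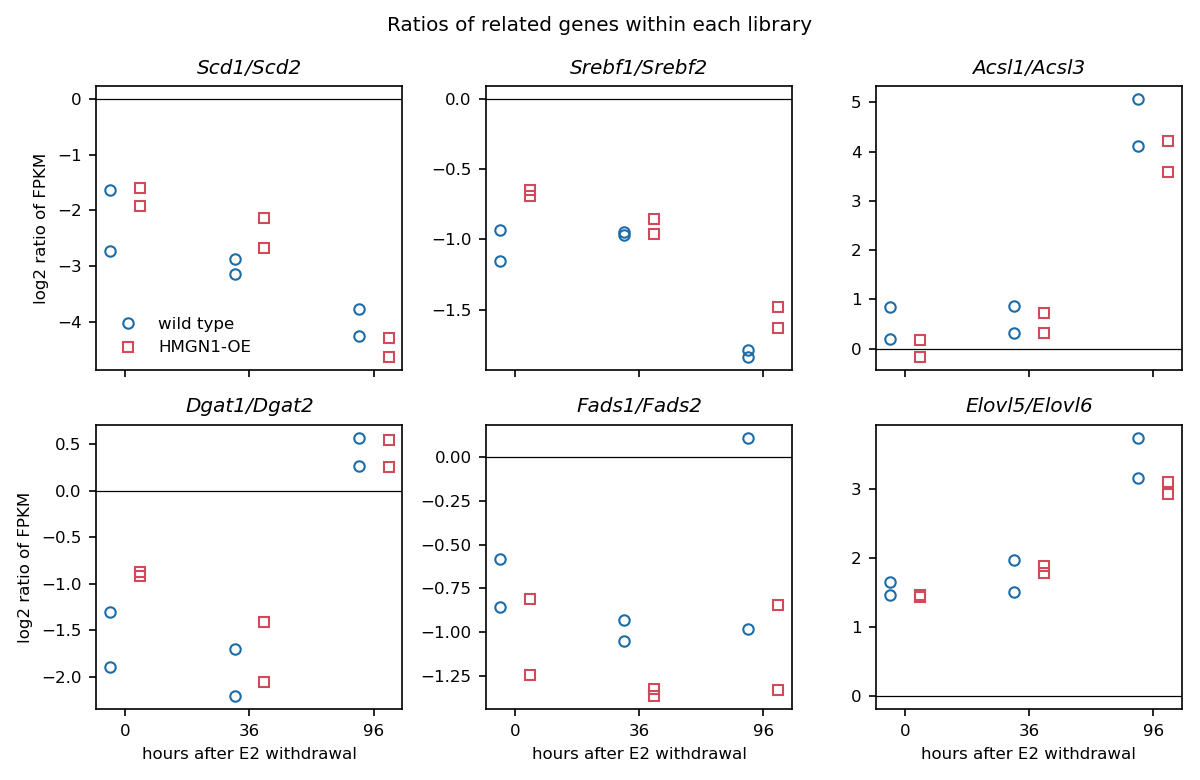
Each panel plots the log2 ratio of the FPKM of a pair of related genes against hours after E2 withdrawal, with open circles for wild-type and open squares for HMGN1-OE libraries. Acsl1/Acsl3, Dgat1/Dgat2 and Elovl5/Elovl6 rise at 96 h, Scd1/Scd2 and Srebf1/Srebf2 fall, and Fads1/Fads2 overlaps across times.

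The make-up of the summed signal shifted accordingly. The desaturases made up 13.7 to 25.5% of it at 0 h, 14.3 to 17.8% at 36 h and 4.14 to 8.21% at 96 h. The genes of acyl-CoA activation and triglyceride synthesis made up 3.90 to 7.17%, then 5.2 to 7.44%, then 13.9 to 26.8%. Fdps alone went from 8.33 to 9.26% at 0 h and 8.04 to 13.3% at 36 h to 15.4 to 24.2% at 96 h, and Dgat1 from 0.626 to 1.20% and 0.714 to 1.06% to 5.11 to 11.5%. The share of the squalene branch moved less, from 12.8 to 15.4% at 0 h and 14.6 to 15% at 36 h to 12.8 to 13.9% at 96 h, where every library lay below those at 36 h.

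**Figure D5:**
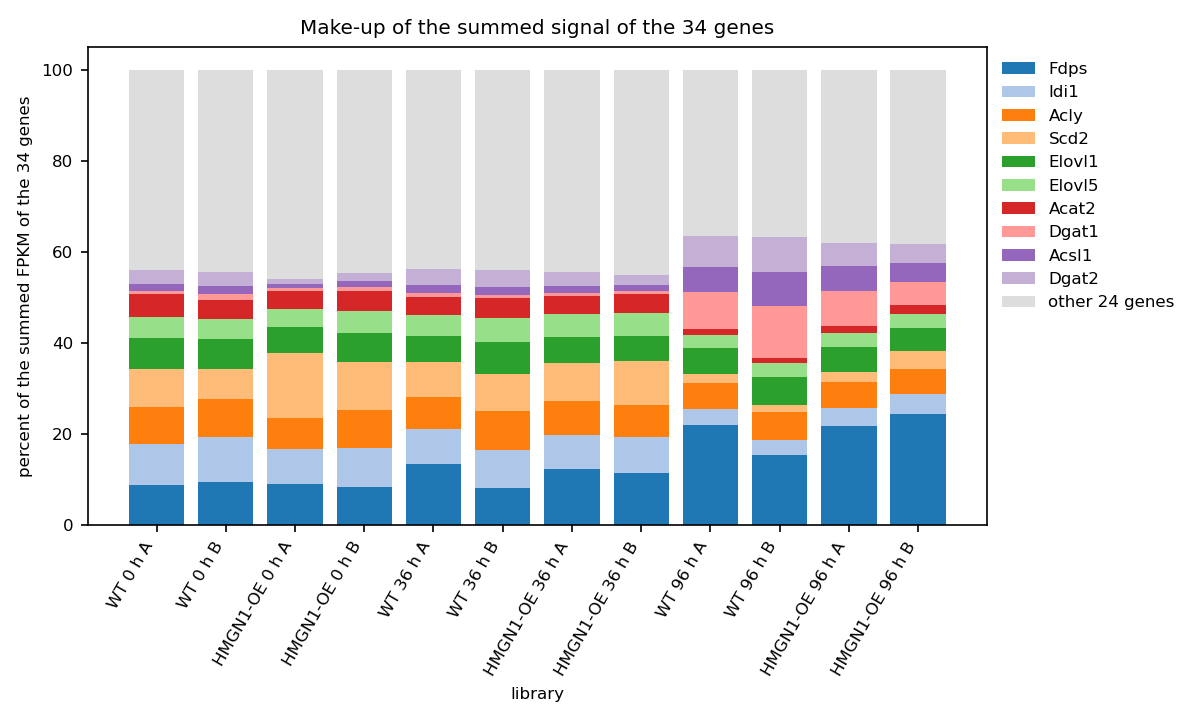
Bars give, for each of the 12 libraries, the percent of the summed FPKM of the 34 genes that came from 10 genes and from the other 24 together. Fdps, Dgat1, Acsl1 and Dgat2 take more of the bar at 96 h, and Scd2, Idi1 and Acat2 less.

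Beside the members, 65 other genes of lipid metabolism were listed, of which 51 were tested. From 36 to 96 h, 46 of the 51 were called lower and 1 higher in wild-type cells, and 30 lower and 1 higher in HMGN1-OE cells, with medians of -2.04 and -1.35. Of all genes 86.3% and 64.9% were called lower, so these counts were near the background. The gene called higher was Pparg in both, a nuclear receptor of lipid storage, with a log2 change of 0.92 ± 0.45 (SE, limma adjusted p = 0.0460) and 2.09 ± 0.45 (adjusted p = 2.62e-05), though its wild-type libraries, 14.0 and 1.45 FPKM at 36 h and 15.3 and 7.10 at 96 h, overlapped. With libraries centred the split was 20 higher and 17 lower in wild-type cells, where 38.2% and 33.7% of all genes were called, and 16 and 16 in HMGN1-OE cells, where 28.6% and 32.3% were. The largest falls in wild-type cells were those of Ptplad1, a dehydratase of the elongation cycle, at -4.21, and Slc25a1, the citrate carrier, at -3.63.

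By role, all 4 genes of SREBP processing and 7 of 7 further genes of cholesterol synthesis were called lower in wild-type cells, and 4 and 4 of them in HMGN1-OE cells. Of genes of sterol uptake, export and storage, 7 of 8 were called lower in wild-type and 3 of 8 in HMGN1-OE cells, where 86.3% and 64.9% of all genes were. With libraries centred 6 and 3 of the 8 were called higher, as were 38.2% and 28.6% of all genes. Further genes of fatty acid synthesis were called lower in 5 of 5 and 4 of 5 cases, those of elongation and activation in 8 of 8 and 6 of 8, those of triglyceride and phospholipid synthesis in 5 of 8 and 4 of 8, and those of fatty acid oxidation in 10 of 11 and 5 of 11.

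The cells changed in other ways over the same hours. Summed markers of neutrophils were 1179 to 2961 FPKM at 0 h, 211 to 2073 at 36 h and 67019 to 172998 at 96 h, and those of immature progenitors 1965 to 8979, 6848 to 15393 and 103 to 1858. The granule genes Mpo, Elane and Prtn3 carried most of the latter sum, and other genes of that list went another way. Flt3, a receptor of early progenitors, was at 47.5 to 82.2 FPKM at 0 h, and at 36 h at 4.10 and 67.0 in wild-type and 7.53 and 9.31 in HMGN1-OE libraries. Cd34 was at 467 to 695 FPKM at 0 h, and at 36 h at 264 and 1105 against 259 and 337. The neutrophil gene S100a9 was listed at 0.0511 FPKM in wild-type library A at 96 h and at 26546 to 73461 in the other 3 libraries of that time. S100a9 and S100a8, at 29366 to 83718 FPKM, carried most of the neutrophil sum at 96 h. Mmp8 of that list stood at 55.7 and 204 FPKM in wild-type and 55.6 and 63.3 in HMGN1-OE libraries at 0 h. At 96 h it was at 33.4 and 60.4 against 15.3 and 12.5. Apart from Mmp8 and that S100a9 value, the neutrophil markers were higher at 96 h than at 0 h. Sums at 0, 36 and 96 h were 436 to 1055, 890 to 2739 and 122 to 523 for mast cells or basophils, 3.27 to 24.8, 2.95 to 52.7 and 201 to 2124 for eosinophils, and 47.0 to 133, 30.2 to 120.4 and 52.8 to 86.8 for monocytes or macrophages. Emr1 carried most of this last sum at 0 h, at 37.7 to 119 FPKM, and was at 9.44 to 18.7 at 96 h. Csf1r of the same list went from 0.324 to 1.13 FPKM at 0 h to 7.17 to 13.5 at 96 h. Mpeg1 went from 1.03 to 11.9 FPKM to 20.4 to 40.3, and Ccr2 overlapped between these times. Markers of erythroid, B and T cells summed to at most 40.4, 28.8 and 10.2 FPKM in any library. Adipocyte markers, which many lipid genes accompany, summed to at most 3.63 FPKM, and 0 of 6 passed the filter. Some marker sums stood apart between genotypes, in either direction. The progenitor sum at 0 h was 4308 and 8979 FPKM in wild-type against 2513 and 1965 in HMGN1-OE libraries. At 96 h it was 586 and 103 against 659 and 1858. The neutrophil sum at 36 h was 2073 and 974 against 571 and 211, and the eosinophil sum at 96 h 2124 and 983 against 201 and 497. The part of these shifts in cell type in the changes of the members, or in their differences between genotypes, was not tested. Mouse Hmgn1, which does not measure the human transgene, was at 85.7 and 141 FPKM in wild-type and 201 and 97.6 in HMGN1-OE libraries at 0 h, so the transgene could not be checked.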

How the data were processed

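RNA-seq was analysed in 12 libraries, 2 in each of 6 groups. RNA from a counted number of cells received ERCC synthetic RNAs, and libraries were made with a poly(A) kit that does not mark strand. The methods name Bowtie and loess normalization on the ERCC values, whereas the submitters' processing notes list HISAT, Cufflinks 2.0.0 and mm9, with no role or order. The deposited values are FPKM after this spike-in normalization by the authors, per gene and library, with 92 ERCC rows left out here. They hold no counts, so depth is unknown and no counting error is given. Loess on spike-ins sets the level of each library, so an error there moves genes of like level together.

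From the FPKM, log2(FPKM + 1) was computed for genes that reached 1 FPKM in 2 or more libraries and was fitted with limma 3.58.1 (R 4.3.3, lmFit, eBayes with trend) with a mean per group, two-sided, with Benjamini-Hochberg adjustment over 11516 genes. The prior degrees of freedom were infinite, so standard errors come from the trend over abundance and not from a gene's own libraries, except with libraries centred on their median. An exact permutation test of 2 against 2 libraries cannot go below p = 0.333. The fit was tested on simulated data. Tables were handled in Python 3.11.15 with pandas 2.3.3 and numpy 2.4.6, and figures drawn with matplotlib 3.10.9. Promoters are RefSeq windows on GRCm38.p6, and exon overlaps are from GENCODE vM21, since no genome of the files' build was used. Shorter overlaps of other members, such as 381 bases of Lss and 323 of Idi1 on the opposite strand, are not given with the genes.

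The members, the other pathway lists and the marker lists were chosen with earlier results of these data known. Values in every library are given for the regulators, for the 2 members of each role with the largest called change from 36 to 96 h in wild-type cells, for members called higher, and for the compared pairs. Exceptions are named. The values of 1 gene outside the members are not reported here. Replicate numbers in the labels could not be tied to the columns, so libraries A and B only name them. The study calls the libraries biological duplicates, without saying what was separate. The p-values measure only the spread between duplicates, on the deposited scale pooled over genes of like abundance. The alternatives were another pseudocount, no filter, a stricter filter, 3 other scalings, only the groups compared, limma without the trend or with its robust option, and each library left out.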

Additional observations from a re-analysis of the deposited data

How the results depend on the processing

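Counts of members called, both directions summed, stayed within 1.5 times under the 9 other settings, except that without a filter on low values 16 members were called from 36 to 96 h in HMGN1-OE cells, against 25 (15 lower, where 25.5% of all genes were). The split by direction did move: lower calls went from 30 to 15 with libraries centred and 13 with quantile normalization in wild-type cells, and from 24 to 12 and 11 in HMGN1-OE cells. Leaving out 1 library gave 27 to 31 members from 36 to 96 h in wild-type cells and 10 to 25 in HMGN1-OE cells, where 79.9 to 91.1% and 33.7 to 74.5% of all genes were called, 0 to 1 between genotypes at 0 h, 0 to 2 at 96 h, and 0 elsewhere. Over 36 to 96 h, scaling turned the sign of some members, given here where the change was called on at least 1 of both scales. In wild-type cells, centring each library on its median gave log2 changes of 1.80 for Acsl1, 0.85 for Dgat2, 1.70 for Elovl7, 0.51 for Fdft1, 0.65 for Fdps, 1.26 for Hsd17b7, 0.52 for Mvd, 0.12 for Pmvk and 0.63 for Srebf2. In HMGN1-OE cells it gave log2 changes of 0.84 for Dgat2, 0.91 for Hsd17b7, 0.0624 for Mvk and 0.47 for Srebf2. In those cells 3 further members turned without a call (0.43 for Fdft1, 0.86 for Fdps, 0.61 for Mvd), as did 5 with equal sums (0.41 for Dgat2, 0.44 for Fdps, 0.44 for Hsd17b7, 0.16 for Mvd, 0.0376 for Srebf2). Scaling each library to an equal sum gave, in wild-type cells, log2 changes of 1.49 for Acsl1, 0.55 for Dgat2, 1.01 for Elovl7, 0.11 for Fdft1, 0.37 for Fdps, 0.84 for Hsd17b7, 0.17 for Mvd and 0.32 for Srebf2. Quantile normalization gave, in wild-type cells, log2 changes of 2.06 for Acsl1, 1.12 for Dgat2, 0.11 for Ebp, 0.0364 for Elovl1, 1.32 for Elovl7, 0.60 for Fdft1, 0.93 for Fdps, 1.28 for Hsd17b7, 0.0853 for Insig1, 0.68 for Mvd, 0.26 for Pmvk and 0.88 for Srebf2, and in HMGN1-OE cells 1.02 for Dgat2, 0.086 for Ebp, 0.0705 for Elovl1, 0.52 for Fdft1, 0.97 for Fdps, 0.96 for Hsd17b7, 0.72 for Mvd, 0.12 for Mvk and 0.62 for Srebf2. These settings remove a shift of the whole library by construction. No paired analysis was possible because the columns carry no replicate number that the labels share.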
